A study of Homo sapiens with 12 samples.

Results

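The genes described here encode the subunits, activators and assembly factors of the proteasome, the protease that degrades ubiquitin-tagged proteins. A list of 42 gene symbols defined them. Probe sets paired with 1 of these symbols were kept, and where a gene had several, the one that was brightest on average over the 12 arrays stood for it. This left 37 measured genes of 19775 genes in all, read from 70 probe sets: 6 of the alpha ring, 7 constitutive beta subunits, 3 immunoproteasome beta subunits, 5 ATPases, 3 other base subunits, 6 lid subunits, 4 assembly chaperones and 3 activators. PSMA6 and PSME2 were paired here with probe sets that also name another gene, and PSMC5, PSMD7 and PSMD13 had no probe set paired with them alone, so these 5 genes were not analysed here. All 37 measured genes had a mean log2 expression value of 10.03 or more, and the highest mean was 13.35, against a median of 6.92 over all probe sets. The range of a member over the 12 arrays lay between 0.30 and 1.75, with a median of 0.53. Probe sets differ in how well they bind their target, so levels are compared between arrays and not between genes.

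The core particle of the proteasome is a barrel of stacked rings. The outer rings hold alpha subunits, which gate the entry, and the inner rings hold beta subunits, of which PSMB5, PSMB6 and PSMB7 carry the proteolytic sites. A regulatory particle caps the barrel: its base holds the ATPases that unfold substrates (PSMC genes) and its lid holds PSMD14, the enzyme that removes ubiquitin chains. Interferon signalling replaces the catalytic subunits with PSMB8, PSMB9 and PSMB10, which form the immunoproteasome and favour peptides for MHC class I presentation. Plasma cells and myeloma cells secrete or retain large amounts of immunoglobulin and lean on protein degradation, and PSMB5 is the main binding site of the proteasome inhibitors used against myeloma.

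RNA came from INA-6, an established human myeloma line that needs interleukin-6. Cells were treated with SB590885, which inhibits Raf kinases, with PD325901, which inhibits MEK, the kinase that Raf activates, or with DMSO, the solvent, and each group had 4 Affymetrix arrays. Each treatment used 300000 cells, all in medium that held interleukin-6 at 2 ng/ml and 10% fetal calf serum, and labelling started from 100 ng of RNA. The sources used here give neither doses nor treatment times. The submitters call the arrays of a group biological replicates, without naming separate cultures, so p-values measure the spread between these arrays, and all come from 1 cell line. Replicates 3 and 4 of every group carry the letter R in a second label that the sources used here leave unexplained, and they stood apart from replicates 1 and 2. Replicate 2 of DMSO and PD325901 also stood apart in interferon-induced genes. Results are therefore given with and without these arrays.

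The files hold log2 expression values from RMA. Array medians lay between 6.88 and 6.97. The SD over the probe sets of an array was 1.522 to 1.555 on replicates 1 and 2 and 1.387 to 1.454 on replicates 3 and 4. It was lowest on PD325901 replicates 3 (1.387) and 4 (1.408). The 8 plasma cell markers, among them SDC1, IRF4 and PRDM1, had medians between 10.88 and 11.64 on the 12 arrays. The markers of B cells, T and NK cells, monocytes, fibroblasts, erythroid cells and endothelium had medians between 6.50 and 7.68, close to the median of all probe sets. With SB590885, 3 of the 8 plasma cell markers were lower than with DMSO (SDC1, XBP1 and SLAMF7). At an adjusted p under 0.05, 1.69% of all genes and 3.68% of genes with a mean of 10 or more were lower. RNA was measured in bulk, so fewer cells of a type and less RNA per cell cannot be told apart. As a measure of RNA integrity, the GAPDH probe set at the 3' end of the transcript exceeded the one at the 5' end by 0.44 ± 0.035 on the log2 scale with SB590885, 0.426 ± 0.057 with PD325901 and 0.371 ± 0.033 with DMSO (SD, n = 4 each), and its part in the results below was not tested.

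PSMB8 and PSMB9 had the widest ranges over the 12 arrays, so the promoters of the measured interferon-inducible members are shown first. RefSeq windows on GRCh38.p14 run from 250 bases before to 50 bases after each annotated start site, 5′ to 3′ along the gene, and 37 of the 42 genes had at least 1 window, 44 windows in all. Capitals mark the core of the interferon-stimulated response element that IRF proteins bind, on either strand: GAAA, any 2 bases, then GAAA again. PSMB8 lies at chr6:32840717-32844679, and the window shown is the one of its 2 windows that holds a match, chr6:32843998-32844297 on the minus strand. PSMB9 lies at chr6:32854192-32859851, and its window is chr6:32853942-32854241 on the plus strand. PSMB10 lies at chr16:67934506-67936850, with its window at chr16:67936801-67937100 on the minus strand. PSME1 lies at chr14:24136194-24138962, with its window at chr14:24135944-24136243 on the plus strand.
PSMB8: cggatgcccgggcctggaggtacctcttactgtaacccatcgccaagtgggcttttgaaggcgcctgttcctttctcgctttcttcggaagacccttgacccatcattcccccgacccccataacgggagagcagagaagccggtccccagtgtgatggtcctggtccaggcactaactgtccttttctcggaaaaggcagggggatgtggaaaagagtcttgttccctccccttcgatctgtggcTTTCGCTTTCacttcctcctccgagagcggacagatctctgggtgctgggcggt
PSMB9: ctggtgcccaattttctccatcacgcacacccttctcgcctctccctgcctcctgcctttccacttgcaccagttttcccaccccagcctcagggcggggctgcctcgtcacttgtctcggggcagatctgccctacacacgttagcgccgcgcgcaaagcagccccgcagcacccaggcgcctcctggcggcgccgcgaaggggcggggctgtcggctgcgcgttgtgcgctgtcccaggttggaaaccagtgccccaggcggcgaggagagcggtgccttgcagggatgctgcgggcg
PSMB10: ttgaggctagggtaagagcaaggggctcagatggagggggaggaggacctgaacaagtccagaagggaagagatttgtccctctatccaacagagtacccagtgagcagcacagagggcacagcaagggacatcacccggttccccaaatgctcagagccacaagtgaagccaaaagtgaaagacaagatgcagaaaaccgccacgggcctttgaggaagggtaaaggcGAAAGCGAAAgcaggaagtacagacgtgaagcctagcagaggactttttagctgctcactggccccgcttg
PSME1: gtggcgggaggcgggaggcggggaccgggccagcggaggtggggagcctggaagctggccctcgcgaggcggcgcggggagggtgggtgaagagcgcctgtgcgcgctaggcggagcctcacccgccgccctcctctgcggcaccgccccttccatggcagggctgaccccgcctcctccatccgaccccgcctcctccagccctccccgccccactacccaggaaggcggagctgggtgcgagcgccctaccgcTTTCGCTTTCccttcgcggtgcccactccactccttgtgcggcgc

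Counted from the start site as +1, the match begins at -4 in PSMB8, at -21 in PSMB10 and at +6 in PSME1. The window of PSME2, whose RNA was not analysed here, holds one at -28. The window of PSMB9 holds none, so it is printed without capitals. PSMB9 lies head to head with TAP1, the peptide transporter gene, and the TAP1 window, which shares 13 bases with it, holds 2 matches. Of all 35116 windows, 3.57% hold a match, and among the proteasome genes 6 did: these 4 and the constitutive subunits PSMB4 (-68) and PSMA4 (-240). Other short motifs, also searched on both strands, were more widespread. CCGGAAG, an ETS core, lay in 29.5% of the 44 windows and in 10.3% of all windows. TGACNNNGC, the core that NFE2L1 and NFE2L2 bind, lay in 29.5% of the 44 and in 13.3% of all. TTCNNNGAA, a STAT core, lay in 15.9% of the 44 and in 7.66% of all, and CCAAT in 40.9% of the 44 and in 34.6% of all. A match is a description of letters and not a measured site.

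The first comparison asks how proteasome RNA stood after Raf inhibition. With SB590885, 35 of 37 genes had a lower mean than with DMSO, but the differences were small, and only PSME3, which encodes the subunit of a nuclear activator, passed the test. The largest difference was that of PSMB8, at -0.79 on the log2 scale, followed by PSMB5 at -0.40. The median difference of the 37 genes was -0.13, against 0.004 over all genes and -0.07 over the 3067 genes with a mean of 10 or more. A value under 0 was seen for 47.9% of all genes. The members' median was -0.074 with 28 of 37 under 0 after quantile normalisation, -0.084 with 28 of 37 without DMSO replicate 2 and -0.086 with 30 of 37 without SB590885 replicate 3. By limma with Benjamini-Hochberg adjustment over 19775 genes, 1 of the 37 genes was lower and 0 were higher at an adjusted p under 0.05. Of all genes 1.69% were lower and 1.59% higher by this rule, and of the genes with a mean of 10 or more 3.68% were lower. At an unadjusted p under 0.05, 7 of 37 were lower and 0 higher, with 6.84% of all genes lower. The 4 SB590885 arrays lay below all 4 DMSO arrays for 5 genes, PSMA5, PSMB5, PSMB8, PSMC1 and PSME3, where 5.76% of all genes did so.

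The test above used no pairing. Arrays of the same number deviated together across the groups, with correlations of 0.544 to 0.913, so a second fit took the numbers as pairs. The labels name no pairing, so this choice rests on the same values. Arrays of another number with the same mark also correlated, at 0.123 to 0.646. SB590885 replicate 3 correlated at 0.557 with DMSO replicate 3 and at 0.572 with DMSO replicate 4, so there the number added nothing to the mark. When limma took the replicate number as a block, 12 of the 37 genes were lower with SB590885 than with DMSO and 0 were higher: PSMA2, PSMA5, PSMB2, PSMB5, PSMB8, PSMB10, PSMC3, PSMC4, PSMC6, PSMD11, PSMD12 and PSME3. The block fit called 9.84% of all genes lower, and 28% of those with a mean of 10 or more, so highly expressed genes as a whole were often lower there. Values were lower in 4 of 4 numbered pairs for 11 of 37 members, where 16.9% of all genes were. With the R mark as a term in place of the block, 9 of the 37 were lower, where 8.68% of all genes and 25.3% of genes with a mean of 10 or more were. PSMB10 (adjusted p = 0.217), PSMC4 (adjusted p = 0.0609) and PSMD11 (adjusted p = 0.0647) did not pass in that fit.

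**Figure D1:**
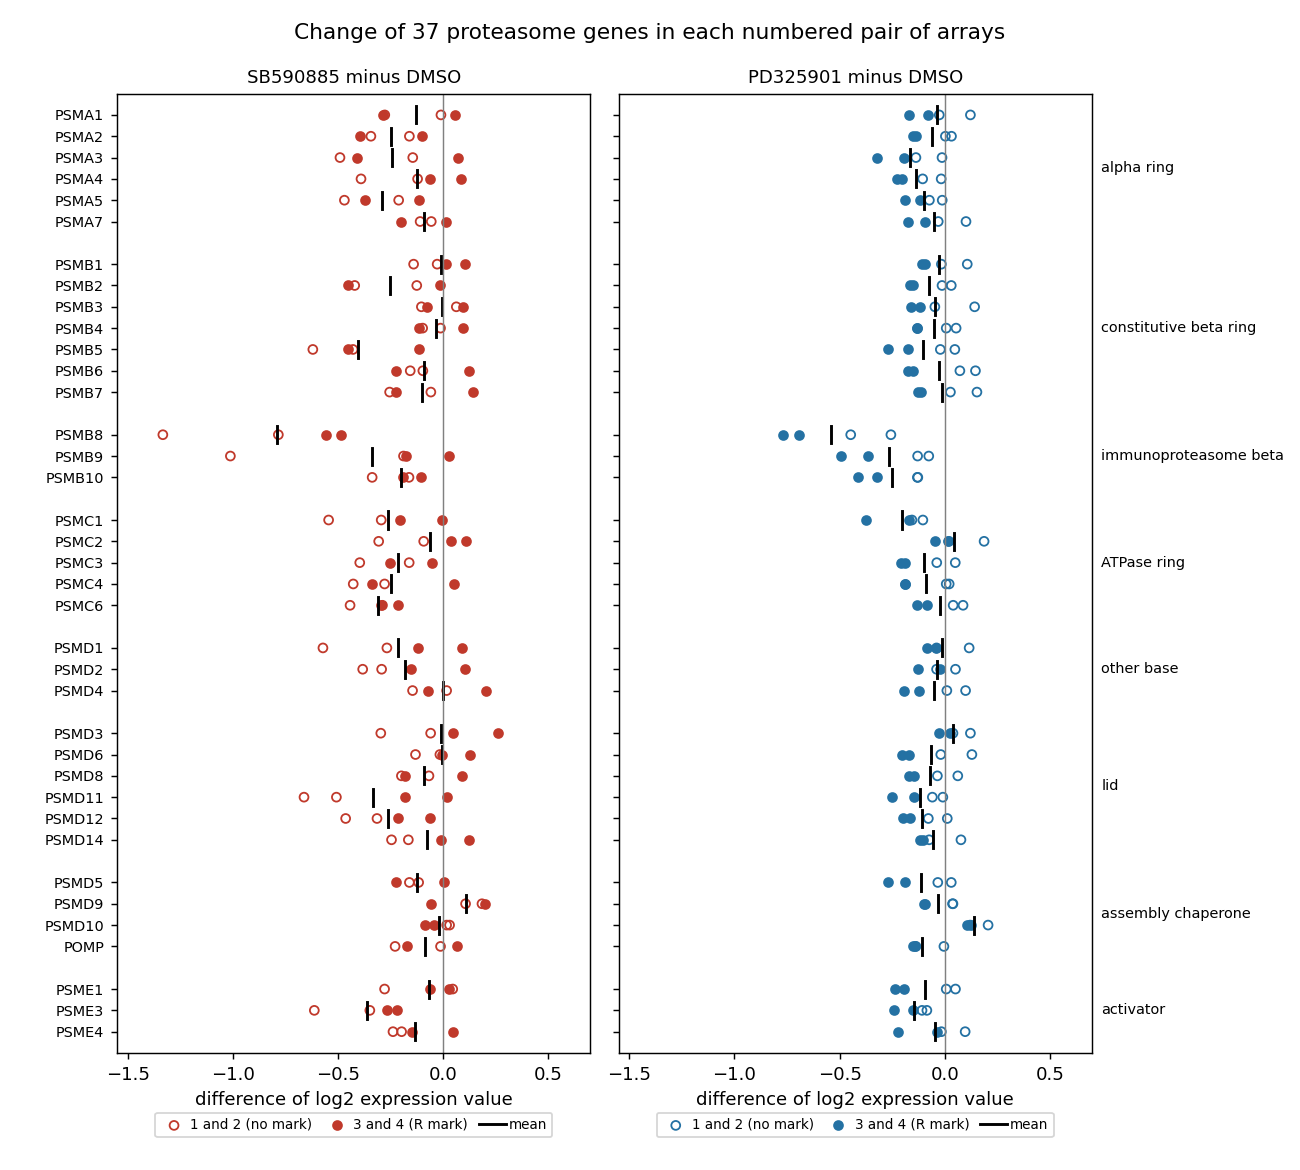
Difference in log2 expression value between arrays of the same number, SB590885 minus DMSO (left) and PD325901 minus DMSO (right), for 37 proteasome genes by class, with open circles for pairs 1 and 2, filled circles for pairs 3 and 4 and a bar at the mean. PSMB8 lies farthest to the left in both panels, and the SB590885 values of pairs 1 and 2 lie mostly left of those of pairs 3 and 4.

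In the alpha ring, whose 6 measured members had a median difference of -0.19 between SB590885 and DMSO, 0 passed the test and 2 did in the block fit. That fit called 9.84% of all genes lower, and 28% of those with a mean of 10 or more. PSMA5 had 12.40, 12.31, 12.05 and 12.33 with SB590885, 12.60, 12.71, 12.30 and 12.26 with PD325901, and 12.61, 12.78, 12.42 and 12.45 with DMSO (log2 expression values in the order of replicates 1 to 4, as in every such list below). Each SB590885 array was below each DMSO array, while PD325901 and DMSO overlapped. The SB590885 difference was -0.29 ± 0.12 (SE, adjusted p = 0.262; 0.00438 with the block). PSMA2 had 12.91, 12.84, 12.37 and 12.58 with SB590885, 13.07, 13.22, 12.62 and 12.55 with PD325901, and 13.07, 13.19, 12.77 and 12.68 with DMSO. Its groups overlapped because replicates 3 and 4 were low in every group, and within each number SB590885 was below DMSO (-0.25 ± 0.17, adjusted p = 0.676; 0.0084 with the block). PSMA3 had 12.53, 12.51, 12.22 and 12.54 with SB590885, against 12.67, 13.00, 12.63 and 12.47 with DMSO. Its groups overlapped at replicate 4. PSMA1, PSMA4 and PSMA7 had differences between -0.13 and -0.09.

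Of the 7 constitutive beta subunits, 0 passed the test and 2 did in the block fit, where 28% of genes with a mean of 10 or more were lower. PSMB5, the chymotrypsin-like subunit, had 10.70, 10.58, 10.56 and 10.60 with SB590885, 11.18, 11.18, 10.74 and 10.54 with PD325901, and 11.13, 11.20, 11.01 and 10.71 with DMSO. Every SB590885 array lay below every DMSO array, with SB590885 replicate 1 and DMSO replicate 4 nearly touching. The difference was -0.40 ± 0.14 (SE, adjusted p = 0.193; 0.00324 with the block). The other catalytic subunits were closer together. PSMB6, the caspase-like subunit, averaged 12.31 ± 0.13 with SB590885 and 12.40 ± 0.06 with DMSO, and PSMB7, the trypsin-like subunit, 12.56 ± 0.14 and 12.65 ± 0.12 (SD, n = 4 each); their groups overlapped (adjusted p = 0.851 and 0.873). PSMB2, a structural subunit, averaged 12.69 ± 0.17 with SB590885, against 12.94 ± 0.18 with DMSO (adjusted p = 0.461; 0.028 with the block). PSMB1, PSMB3 and PSMB4 differed by -0.03 to -0.005.

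The immunoproteasome subunits had a median difference of -0.34 between SB590885 and DMSO, and 0 of 3 passed the test. PSMB8, which takes the place of PSMB5, had 10.43, 10.63, 10.49 and 10.62 with SB590885, 10.77, 11.70, 10.20 and 10.47 with PD325901, and 11.21, 11.96, 10.97 and 11.17 with DMSO. All SB590885 arrays were below all DMSO arrays, and the PD325901 arrays reached from below the SB590885 arrays to near the top of DMSO. The difference from DMSO was -0.79 ± 0.28 with SB590885 (SE, adjusted p = 0.198; 0.00173 with the block) and -0.54 ± 0.28 with PD325901 (adjusted p = 0.831; 0.0385 with the block), and both groups are set against the same DMSO arrays. In replicates 3 and 4 alone PSMB8 was lower with both, with differences of -0.52 for SB590885 (adjusted p = 0.00891) and -0.73 for PD325901 (adjusted p = 0.000956). In replicates 1 and 2 alone neither difference passed, at -1.06 for SB590885 (adjusted p = 0.0737) and -0.35 for PD325901 (adjusted p = 0.772).

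PSMB9, which takes the place of PSMB6, had 10.66, 10.83, 10.61 and 10.77 with SB590885, 10.72, 11.76, 10.29 and 10.38 with PD325901, and 10.85, 11.84, 10.79 and 10.74 with DMSO. Replicate 2 stood far above the other arrays of DMSO and of PD325901, but not of SB590885, and the groups overlapped. PSMB10, which takes the place of PSMB7, had 10.89, 11.02, 10.77 and 11.07 with SB590885, 10.92, 11.23, 10.64 and 10.76 with PD325901, and 11.05, 11.36, 10.96 and 11.17 with DMSO. Each inhibitor array lay below the DMSO array of its number (SB590885 -0.20 ± 0.12, adjusted p = 0.608 and 0.0484 with the block; PD325901 -0.25 ± 0.12, adjusted p = 0.808 and 0.032 with the block). PSME1, a subunit of the activator that interferon induces, averaged 12.33 ± 0.11 with SB590885, 12.30 ± 0.31 with PD325901 and 12.40 ± 0.21 with DMSO (SD, n = 4 each). Its groups overlapped, and its differences from DMSO were -0.07 with SB590885 and -0.09 with PD325901.

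**Figure D2:**
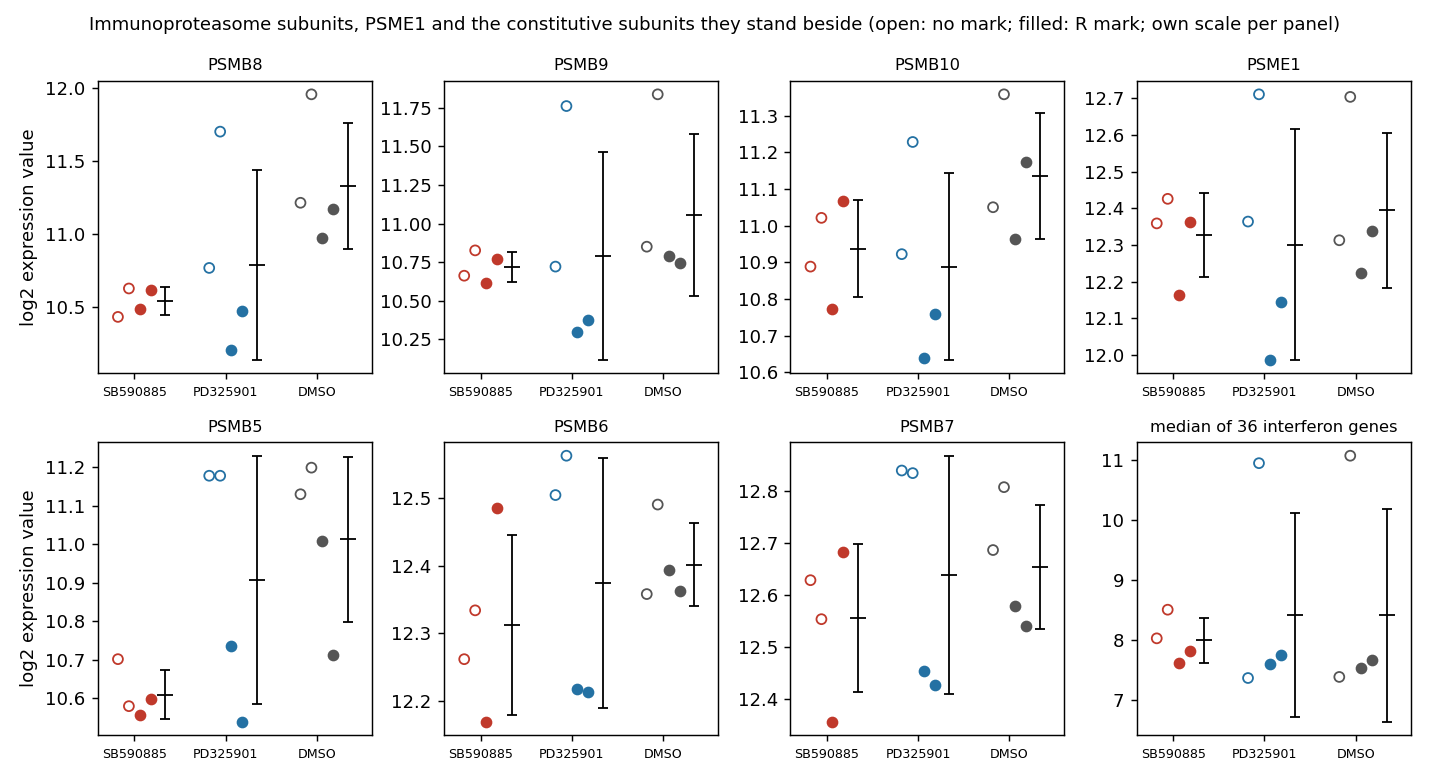
Log2 expression value per array of the immunoproteasome subunits, PSME1, the constitutive subunits PSMB5, PSMB6 and PSMB7, and the median of 36 interferon response genes, with open circles for replicates 1 and 2, filled circles for replicates 3 and 4, and the mean and SD of 4 arrays beside each group. Replicate 2 is the highest PD325901 and DMSO array for PSMB8, PSMB9, PSMB10 and PSME1, and PSMB5 is low on all 4 SB590885 arrays.

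Replicate 2 carried much of the immunoproteasome spread. The PSMB8 value of replicate 2 exceeded that of replicate 1 by 0.20 with SB590885, by 0.93 with PD325901 and by 0.74 with DMSO. For PSMB9 the excess was 0.16 with SB590885, 1.04 with PD325901 and 0.99 with DMSO. The median of 36 interferon response genes, of 39 listed, was 8.51 on SB590885 replicate 2, 10.95 on PD325901 replicate 2 and 11.08 on DMSO replicate 2. On the other arrays it lay between 7.63 and 8.04 with SB590885, between 7.37 and 7.75 with PD325901 and between 7.39 and 7.68 with DMSO. ISG15, an interferon-induced ubiquitin-like protein, had 10.17, 13.71 and 13.77 on replicate 2 of SB590885, PD325901 and DMSO. Of the 37 members, 4 were highest on replicate 2 with SB590885, 26 with PD325901 and 33 with DMSO. The same count was not made over all genes, so it is not read as particular to the members. Of genes with a mean of 10 or more, 80.4% were lower on replicates 3 and 4 than on replicates 1 and 2 at an adjusted p under 0.05. Without all replicate 2 arrays, the SB590885 difference was -0.61 for PSMB8 (adjusted p = 0.0999) and -0.11 for PSMB9, against -0.79 and -0.34 with them. With the block and without replicate 2, a fit added after the data were seen, 6 members were lower with SB590885 than with DMSO, where 7.44% of all genes and 20.7% of genes with a mean of 10 or more were. These were PSMA2, PSMA5, PSMB5, PSMB8, PSMC6 and PSME3. The block calls of PSMB2, PSMB10, PSMC3, PSMC4, PSMD11 and PSMD12 were lost there (adjusted p = 0.0925 to 0.175). With PD325901 3 were lower, where 5.17% of all genes and 12.9% of those with a mean of 10 or more were. Among these, PSMB8 was lower with SB590885 (adjusted p = 0.000228) and with PD325901 (adjusted p = 0.000205), and PSMB9 (adjusted p = 0.0169) and PSMB10 (adjusted p = 0.0152) were lower with PD325901.

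Among the activators, PSME3 had 9.99, 9.77, 9.96 and 9.98 with SB590885, 10.26, 10.27, 10.08 and 9.96 with PD325901, and 10.34, 10.38, 10.23 and 10.20 with DMSO. All SB590885 arrays were below all DMSO arrays, and PD325901 overlapped both, its highest array within the DMSO range and its lowest within the SB590885 range. The means were 9.93 ± 0.11 with SB590885 and 10.29 ± 0.09 with DMSO (SD, n = 4 each), so that PSME3 fell to 0.778 of its DMSO level, a difference of -0.36 ± 0.080 (SE, adjusted p = 0.0317; 0.00159 with the block). All 4 probe sets of PSME3 were lower, by -0.37 to -0.16. The call was lost without SB590885 replicate 1, 2 or 3 or DMSO replicate 1, 2 or 3, with differences between -0.39 and -0.31 over all 12 such fits and adjusted p up to 0.102, and with replicates 3 and 4 alone (-0.24, adjusted p = 0.0723). It was also lost with arrays centred (-0.38, adjusted p = 0.066), after quantile normalisation (-0.30, adjusted p = 0.0761), with probe sets averaged (-0.28, adjusted p = 0.109), without the replicate 2 arrays (-0.28, adjusted p = 0.214) and, at the same difference, with trended robust moderation (adjusted p = 0.0822). PSME4, an activator known from acetylated histone degradation, averaged 10.28 ± 0.13 with SB590885 and 10.41 ± 0.02 with DMSO, with overlapping groups (adjusted p = 0.516).

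The ATPase ring had a median SB590885 difference of -0.25 over 5 measured members, of which 0 passed the test and 3 did in the block fit. Of genes with a mean of 10 or more, 28% were lower in the block fit. PSMC6 had 12.14, 12.06, 11.84 and 11.88 with SB590885, 12.51, 12.54, 12.003 and 12.01 with PD325901, and 12.43, 12.50, 12.13 and 12.09 with DMSO. SB590885 was the lowest of the 3 groups at every number (-0.31 ± 0.14, adjusted p = 0.377; 0.00135 with the block). PSMC1 had 11.53, 11.42, 11.50 and 11.59 with SB590885, against 11.83, 11.96, 11.70 and 11.59 with DMSO. These groups nearly touched at replicate 4 but did not overlap (-0.26 ± 0.12, adjusted p = 0.365; 0.0524 with the block). PSMC3 had 10.65, 10.61, 10.89 and 11.04 with SB590885, against 10.82, 11.01, 11.14 and 11.09 with DMSO. Its groups overlapped, with replicates 3 and 4 above 1 and 2 in both (-0.22 ± 0.096, adjusted p = 0.342; 0.0372 with the block). PSMC4 differed by -0.25 and PSMC2 by -0.06.

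Of the other base subunits, which include ubiquitin receptors and the large scaffolds PSMD1 and PSMD2, 0 of 3 passed in either fit. PSMD1 had 10.96, 10.95, 11.23 and 11.41 with SB590885, against 11.23, 11.53, 11.34 and 11.32 with DMSO. PSMD2 had 11.19, 11.22, 11.38 and 11.64 with SB590885, against 11.48, 11.60, 11.53 and 11.54 with DMSO. For both genes SB590885 replicates 1 and 2 were low and replicate 4 was above its DMSO partner (adjusted p = 0.413 and 0.408). PSMD4, a ubiquitin receptor, differed by 0.0009. Of the 6 lid subunits, 0 passed and 2 did in the block fit, where 28% of genes with a mean of 10 or more were lower. PSMD11, a scaffold subunit of the lid, had 11.07, 11.11, 11.35 and 11.35 with SB590885, 11.57, 11.72, 11.38 and 11.08 with PD325901, and 11.58, 11.78, 11.53 and 11.33 with DMSO (SB590885 against DMSO -0.33 ± 0.13, adjusted p = 0.265; 0.0415 with the block). SB590885 and DMSO overlapped at replicates 3 and 4, and the second probe set of PSMD11, with a mean of 8.32, differed by 0.14 in the other direction. PSMD12 averaged 11.82 ± 0.05 with SB590885 and 12.09 ± 0.20 with DMSO (adjusted p = 0.432; 0.0165 with the block). PSMD14, the deubiquitinating subunit, averaged 12.39 ± 0.07 and 12.46 ± 0.14 (adjusted p = 0.9). PSMD3, PSMD6 and PSMD8 differed by -0.09 to -0.005. Of 15 members with more than 1 probe set at a mean of 8 or more, all probe sets were lower with SB590885 for 11, and the probe sets differed in sign for 4 (PSMB2, PSMC2, PSMD4 and PSMD11).

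**Figure D3:**
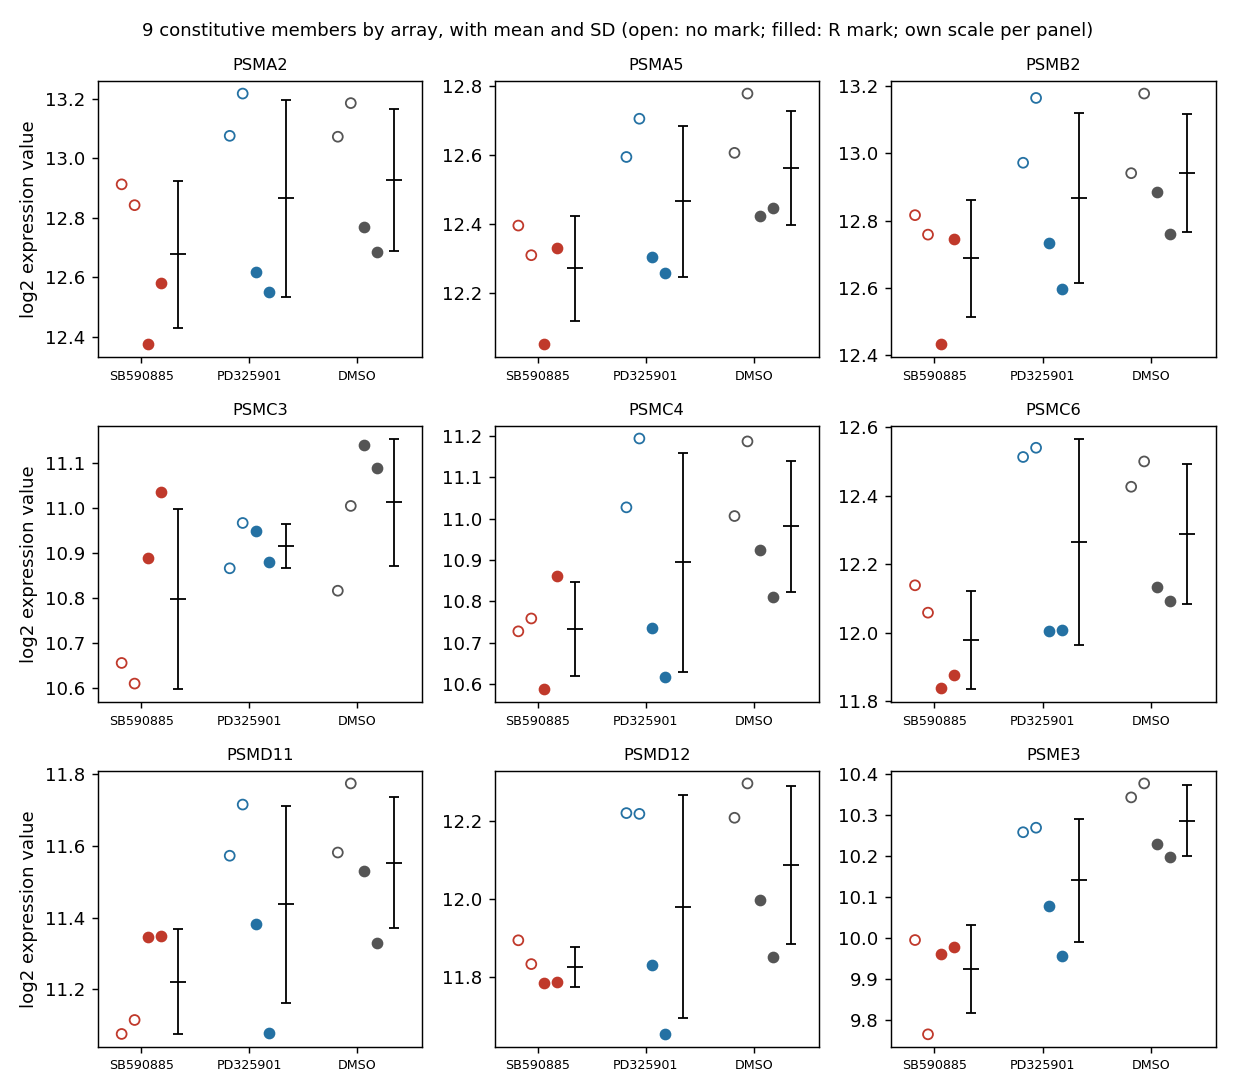
Log2 expression value per array of 9 constitutive members, those lower with SB590885 than with DMSO in the fit with the replicate block besides PSMB5, with open circles for replicates 1 and 2, filled circles for replicates 3 and 4, and the mean and SD of 4 arrays beside each group. PSME3 and PSMA5 show SB590885 arrays wholly below DMSO, while PSMA2 and PSMC6 show a spread between open and filled circles that is wider than the difference between groups.

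The assembly chaperones had the smallest median difference of the classes, -0.05, and 0 of 4 passed in either fit. PSMD9 had 10.71, 10.69, 10.48 and 10.57 with SB590885, 10.64, 10.54, 10.44 and 10.27 with PD325901, and 10.60, 10.51, 10.54 and 10.38 with DMSO. It was 1 of 2 members with a positive SB590885 difference (0.11 ± 0.083, adjusted p = 0.73), and its groups overlapped. The dimmer probe set of PSMD9, with a mean of 7.41, was higher with SB590885 when every probe set was fitted on its own, a fit added after the data were seen (0.34, adjusted p = 0.0347 over 54613 probe sets). PSMD10, also known as gankyrin, had 11.72, 11.79, 11.41 and 11.46 with SB590885, 11.91, 11.88, 11.60 and 11.63 with PD325901, and 11.71, 11.76, 11.50 and 11.51 with DMSO. PD325901 was above DMSO at every number, by 0.14 ± 0.11 on average (adjusted p = 0.979; 0.0563 with the block). PSMD5 and POMP, the maturation factor of the core particle, differed by -0.12 and -0.09 between SB590885 and DMSO.

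The second comparison asks the same of MEK inhibition. With PD325901, 0 of 37 genes passed the test, and 0 did at an unadjusted p under 0.05. Of all genes 0.592% passed, and 6.8% had an unadjusted p under 0.05. The median difference was -0.065, against -0.003 over all genes and -0.085 over genes with a mean of 10 or more, and 34 of 37 values were under 0, as were 51.5% of all genes, but after quantile normalisation the median was 0.006 with 18 of 37 under 0, and with array weights it was 0.019 with 14 of 37. Single arrays also moved it. It was -0.114 without PD325901 replicate 1, -0.13 without replicate 2, -0.019 with 22 of 37 under 0 without replicate 3 and -0.002 with 19 of 37 without replicate 4. Without DMSO replicate 2 it was -0.017 with 24 of 37 under 0, and without DMSO replicate 4 it was -0.103. The largest differences were those of PSMB8 and PSMB10, given above, and of PSMB9, at -0.27 ± 0.31 (SE, limma's adjusted p = 0.985). The groups of 4 arrays overlapped for all 37 genes, while they stood apart for 4.08% of all genes. PD325901 was below DMSO in 4 of 4 numbered pairs for 10 members, where 18.5% of all genes were. In the block fit 2 genes were lower, PSMB8 and PSMB10, where that fit called 6.18% of all genes lower, and 15.4% of those with a mean of 10 or more. With the R mark as a term in place of the block, PSMB8 (adjusted p = 0.158) and PSMB10 (adjusted p = 0.163) did not pass, and PSMD10 was higher (adjusted p = 0.0466), where 1.46% of all genes and 3.2% of genes with a mean of 10 or more were. In replicates 3 and 4 alone, PSMB8 and PSMB9 were lower, where 4.89% of all genes and 15.1% of those with a mean of 10 or more were, and after quantile normalisation PSMB9 did not pass (-0.26, adjusted p = 0.123).

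The third comparison sets the inhibitors against each other, at doses that are not given. Between SB590885 and PD325901, 0 of 37 genes passed the test, against 2.82% of all genes, and PSME3 alone was lower at an unadjusted p under 0.05, as were 4.31% of all genes. Its difference was -0.22 ± 0.080 (SE, limma's adjusted p = 0.235). The median difference was -0.077, against 0 over all genes, and 27 of 37 values were under 0, against 49.8% of all genes. It was -0.036 without SB590885 replicate 3, -0.036 without PD325901 replicate 1, -0.006 with 19 of 37 under 0 without PD325901 replicate 2, -0.133 without replicate 3 and -0.142 without replicate 4, and with array weights it was -0.18 with 36 of 37 under 0. The groups overlapped for all 37 members and stood apart for 7.18% of all genes. In the block fit 6 members were lower with SB590885 and 0 higher, PSMA2, PSMA5, PSMB5, PSMC6, PSMD10 and PSME3, where that fit called 5.73% of all genes lower, and 14.3% of those with a mean of 10 or more. The same arrays enter the comparisons with DMSO, so these counts do not add to those above.

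The differences were not alike in the array sets with and without the R mark. In replicates 3 and 4, the median difference of the 37 genes was -0.07 between SB590885 and DMSO, -0.16 between PD325901 and DMSO and 0.09 between SB590885 and PD325901. In replicates 1 and 2 the same medians were -0.22, 0.01 and -0.25. SB590885 was thus below PD325901 for 7 of 37 genes in replicates 3 and 4 and for 36 of 37 in replicates 1 and 2. For genes with a mean of 10 or more, the SB590885 against PD325901 medians were 0.09 in replicates 3 and 4 and -0.06 in replicates 1 and 2. The interaction of treatment and mark, marked minus unmarked, was tested for every gene, and 0 members passed at an adjusted p under 0.05 in any of the 3 comparisons (lowest adjusted p = 0.499, 0.787 and 0.129). By the same rule 0.00506% of all genes passed for SB590885 against DMSO, 0% for PD325901 against DMSO and 0.00506% for SB590885 against PD325901. At an unadjusted p under 0.05, the SB590885 against PD325901 interaction held for 23 of 37 members, all positive, which is 62.2% of them. That was 11.9% of all genes and 27.2% of genes with a mean of 10 or more. For SB590885 against DMSO it was 24.3% of members, 6.63% of all genes and 8.54% of genes with a mean of 10 or more. For PD325901 against DMSO these shares were 8.11%, 5.45% and 12.3%. After quantile normalisation, the SB590885 against PD325901 share was 27% of members, 7.41% of all genes and 8.87% of genes with a mean of 10 or more, and its medians were 0.016 in replicates 3 and 4 and -0.16 in replicates 1 and 2. The medians of SB590885 against DMSO were then 0.013 in replicates 3 and 4, with the opposite sign to the deposited values, and -0.161 in replicates 1 and 2, and those of PD325901 against DMSO were -0.011 and 0.02.

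PSMD11 had the lowest p of the members' interactions in both comparisons of SB590885. It was lower with SB590885 than with DMSO by -0.08 in replicates 3 and 4 and by -0.58 in replicates 1 and 2 (interaction 0.50, limma's adjusted p = 0.499). Against PD325901 its difference was 0.12 in replicates 3 and 4 and -0.55 in replicates 1 and 2 (interaction 0.67, adjusted p = 0.129). PSMD1 and PSMD2 behaved in the same manner, with SB590885 against DMSO differences of -0.01 and -0.02 in replicates 3 and 4 and of -0.42 and -0.34 in replicates 1 and 2. Fits of each set alone called 11 members lower with SB590885 than with DMSO in replicates 1 and 2, PSMA5, PSMB5, PSMC1, PSMC3, PSMC4, PSMC6, PSMD1, PSMD2, PSMD11, PSMD12 and PSME3, where 6.81% of all genes were, and 20.2% of those with a mean of 10 or more. After quantile normalisation 8 were lower, without PSMC3, PSMC4 and PSMD1. In replicates 3 and 4 they called PSMB8 and PSMC6, where 3.23% of all genes and 8.84% of those with a mean of 10 or more were lower, and after quantile normalisation PSMC6 did not pass (-0.18, adjusted p = 0.195). Between SB590885 and PD325901, 13 members were lower in replicates 1 and 2, where 5.55% of all genes and 17% of those with a mean of 10 or more were. After quantile normalisation 8 were, without PSMA2, PSMA5, PSMB7, PSMC3 and PSME4. PSMB9 was higher with SB590885 in replicates 3 and 4 (0.35, adjusted p = 0.0117), where 7.32% of all genes and 13.9% of those with a mean of 10 or more were, but did not pass after quantile normalisation (0.27, adjusted p = 0.0545). PSMC6, PSMA2 and PSMA5 had differences from DMSO of -0.26, -0.25 and -0.24 in replicates 3 and 4, beside -0.37, -0.25 and -0.34 in replicates 1 and 2.

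**Figure D4:**
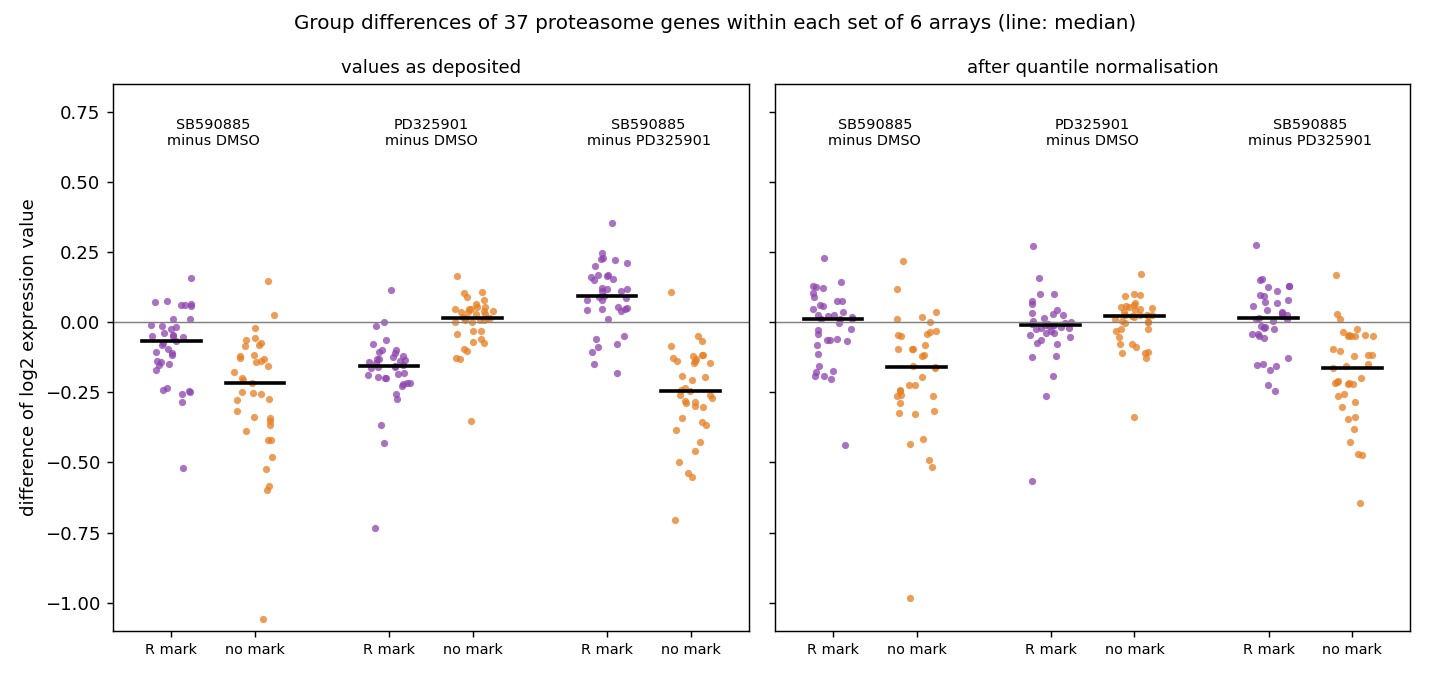
Differences in log2 expression value of 37 proteasome genes (points, with a line at the median) between groups, within the 6 arrays with the R mark and the 6 without it, as deposited (left) and after quantile normalisation (right). The SB590885 against PD325901 medians are 0.09 with the mark and -0.25 without it as deposited, and 0.02 and -0.16 after quantile normalisation.

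The mark itself went with lower proteasome values as deposited. In a fit with group and mark, 22 members were lower on marked than on unmarked arrays, PSMC3 was higher and 14 did not pass, but after quantile normalisation 1 was lower (PSMA2) and 12 were higher, and after centring on array medians 27 were lower and 0 higher. Of all genes 32.1% were lower and 23.4% higher by the deposited values, and of genes with a mean of 10 or more 80.4% were lower. After quantile normalisation 13.4% of all genes were lower and 23.6% higher, with 21.9% lower at a mean of 10 or more. After centring 38.4% were lower and 10.4% higher, with 86.5% lower at a mean of 10 or more. The members' median difference was -0.21, against -0.28 for genes with a mean of 10 or more, and 0.05 against 0.009 after quantile normalisation. PSMA2 averaged 12.60 ± 0.13 on marked arrays and 13.05 ± 0.15 on unmarked arrays (SD, n = 6 each), a difference of -0.45 (adjusted p = 3.19e-06), and of -0.24 after quantile normalisation (adjusted p = 0.000801). PSMC3 averaged 10.997 ± 0.11 on marked arrays, against 10.82 ± 0.16 on unmarked arrays, a difference of 0.18 (adjusted p = 0.0137), and of 0.50 after quantile normalisation. The base and lid subunits PSMD1, PSMD2 and PSMD3 differed by 0.06, 0.07 and 0.03 as deposited and by 0.37, 0.38 and 0.35 after quantile normalisation, where they passed the test. The sources used here do not say what the mark stands for, so it is not called a batch.

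**Figure D5:**
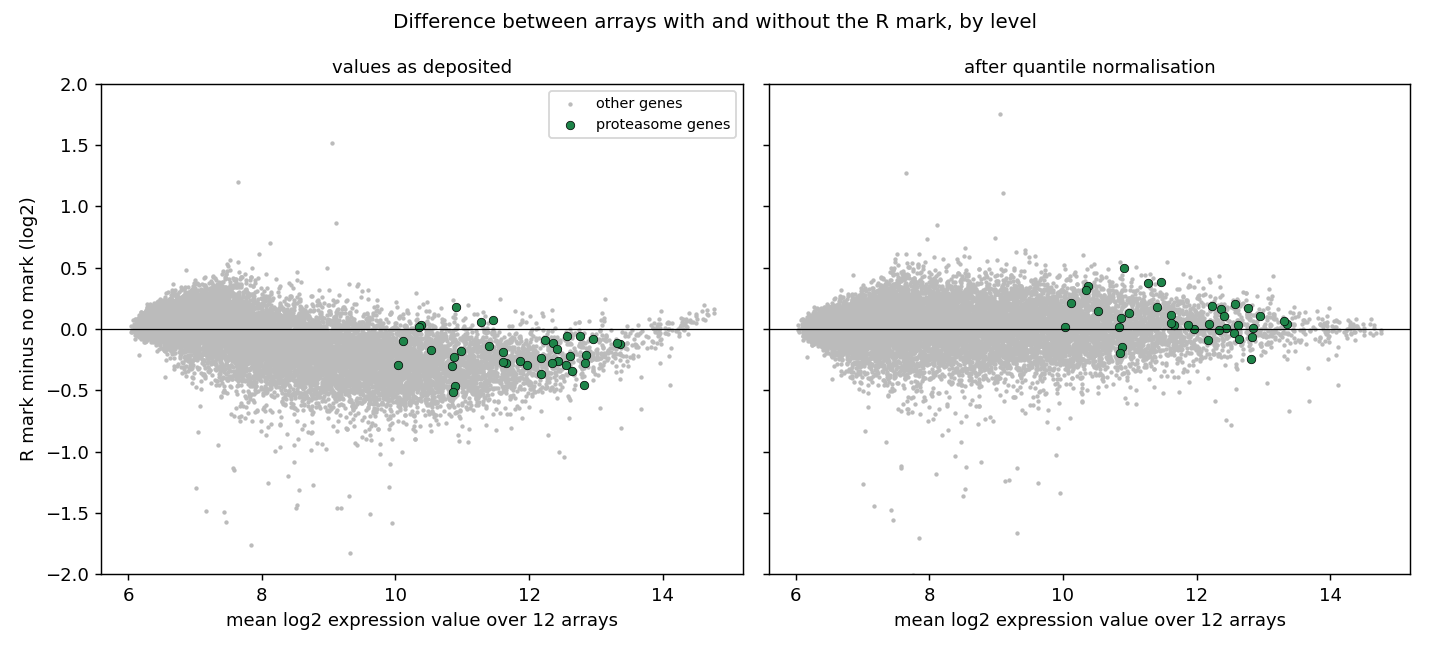
Difference in log2 expression value between arrays with and without the R mark against the mean over 12 arrays, for all genes (grey) and 37 proteasome genes (green), as deposited (left) and after quantile normalisation (right), with 2 other genes outside the drawn range. As deposited, genes with a mean above 10 lie mostly below 0 and the proteasome genes lie among them, and after quantile normalisation both lie around 0.

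Genes that work with the proteasome were counted in the same way. At an adjusted p under 0.05 without the block, 1.69% of all genes were lower and 1.59% higher with SB590885 than with DMSO. Of 25 assembly chaperones, ubiquitin receptors and regulators outside the list, 24 were measured, and 1 was lower and 0 higher with SB590885 than with DMSO. This was UBQLN4, a shuttle that brings ubiquitinated proteins to the proteasome, with 9.84, 9.69, 9.69 and 9.80 with SB590885, against 10.10, 10.17, 10.01 and 10.07 with DMSO (-0.33 ± 0.076, adjusted p = 0.0359). Of 12 ubiquitin genes 6 were measured, and UBE2N, a conjugating enzyme of lysine-linked signalling chains, was lower. It averaged 11.98 ± 0.08 with SB590885 and 12.26 ± 0.02 with DMSO (adjusted p = 0.0164). For both genes the groups did not overlap. In the block fit 7 of the 24 and 1 of the 6 were lower, and 1 of the 24 was higher, where that fit called 9.84% of all genes lower, 28% of those with a mean of 10 or more lower, and 9.09% of all genes higher.

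NFE2L1 is the transcription factor that raises proteasome subunit transcription when the proteasome is inhibited. Of 14 genes of its pathway 11 were measured, and 1 was lower and 0 higher with SB590885, where 1.69% of all genes were lower and 1.59% higher. In the block fit 4 of the 11 were higher (NFE2L1, MAFG, BACH1 and SQSTM1) and 2 were lower (NFE2L3 and NGLY1). That fit called 9.09% of all genes higher and 9.84% lower. SQSTM1, an autophagy receptor for ubiquitinated proteins that was singled out after its values were seen, had the largest difference (0.92, adjusted p = 0.0652; 5.84e-05 with the block). NFE2L1 itself had 9.90, 9.99, 9.62 and 9.40 with SB590885, 9.47, 9.62, 9.17 and 9.15 with PD325901, and 9.35, 9.49, 9.24 and 9.12 with DMSO. It was highest with SB590885 at every number (0.43 ± 0.14 against DMSO, adjusted p = 0.152; 5.83e-05 with the block), a direction opposite to that of most subunits. The gene that passed was NFE2L3, a related factor, which averaged 7.60 ± 0.09 with SB590885, 7.62 ± 0.24 with PD325901 and 8.11 ± 0.19 with DMSO (SB590885 against DMSO adjusted p = 0.0436; PD325901 against DMSO adjusted p = 0.144). NFE2L2, the oxidative stress factor of the family, differed by -0.01 and -0.05.

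The antigen processing genes downstream of the immunoproteasome had 15 of 16 members measured, and 0 passed against DMSO with either inhibitor. In the block fit 5 were lower with SB590885 (TAP2, ERAP1, ERAP2, CANX and PDIA3) and 0 higher, and with PD325901 HLA-E was lower and PDIA3 higher. For SB590885 that fit called 9.84% of all genes lower, and 28% of those with a mean of 10 or more. For PD325901 it called 6.18% of all genes lower and 1.96% higher. TAP1, beside PSMB9 on chromosome 6, had 10.08, 10.28, 10.19 and 10.33 with SB590885, 10.36, 11.74, 10.04 and 10.25 with PD325901, and 10.26, 11.72, 10.10 and 10.30 with DMSO. Its high arrays were replicate 2 of PD325901 and DMSO, as for PSMB9 (SB590885 against DMSO -0.37, adjusted p = 0.854). IRF1, a factor that binds the interferon-stimulated response element, averaged 8.35 ± 0.12 with SB590885, 8.20 ± 0.27 with PD325901 and 8.38 ± 0.28 with DMSO, with overlapping groups. PDIA3, the disulphide isomerase of the peptide loading complex, was lower with SB590885 than with PD325901, at 10.69 ± 0.33 and 11.69 ± 0.33 (SD, n = 4 each; adjusted p = 0.0168). Of the 36 interferon response genes 0 passed in any of the 3 comparisons. In the block fit 1 was higher and 4 lower with SB590885 than with DMSO, and 0 passed with PD325901. Of all genes, that fit called 9.09% higher and 9.84% lower with SB590885.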

How the data were processed

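INA-6 cells treated with SB590885, PD325901 or DMSO were measured on 12 arrays. The authors deposited log2 values, 1 per probe set, computed by RMA in R 3.0.1 per the submitters' processing notes. The sources used here do not say whether all arrays were normalised together. Arrays carry no counts, so their number limits the precision.

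The files list 54675 probe sets. After 62 controls were dropped, 41091 had a single gene symbol in the annotation, 1801 named several genes and 11721 named none. The probe set with the highest mean over 12 arrays stood for each of 19775 genes, 10523 of which had more than 1. Tests used limma (version 3.58.1, R 4.3.3), with 1 mean per group fitted over all 12 arrays, empirical Bayes without trend, and Benjamini-Hochberg adjustment over 19775 genes. A gene rose or fell at an adjusted p under 0.05. The fits were tested on simulated data, built without a shift of the marked arrays and without the high interferon genes of replicate 2.

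Deviations of same-numbered arrays from their group means correlated across groups at 0.544 to 0.913 over 12 pairs. For another number with the same mark the range was 0.123 to 0.646, and for the other mark -0.718 to -0.443. The main test had no replicate block, and a second fit took same-numbered arrays as pairs. The labels name no pairing, so this choice rests on the same values. No 2 arrays of a group were duplicates. Alternatives were a replicate block, the R mark as a term, each set of arrays alone, median centring, quantile normalisation, other probe set rules, a filter on low genes, trended and robust moderation, array weights, and arrays left out.

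All members may be named. Array values, or group means with SD, are given for members with an unadjusted p under 0.05 in a treatment comparison. They are also given for the immunoproteasome genes with their constitutive counterparts, PSME1, and otherwise the 2 members of a class with the smallest p. Some of them leave out PD325901. PSMA2 and PSMC6 were added after their values were seen. The members and lists were chosen with earlier results of these data known. The background of genes with a mean of 10 or more, every probe set fitted on its own, and the block without replicate 2 were added after seeing the data. Promoter sequences are RefSeq's on GRCh38.p14, used without array coordinates.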

Additional observations from a re-analysis of the deposited data

Results flagged for a closer look

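In 7 of the 114 groups of 4 arrays examined, 5 of them among 111 groups of member values, 1 array lay far from the other 3 of its group by Dixon's ratio, where chance gives about 1 in 20. SB590885 replicate 3 was low for PSMA1, at 12.57 against 12.84 to 12.85 on the other SB590885 arrays, and for PSMA3, at 12.22 against 12.51 to 12.54. SB590885 replicate 2 was low for PSME3, at 9.77 against 9.96 to 9.99. Without that array the SB590885 difference of PSME3 no longer passed (adjusted p = 0.0979). DMSO replicate 2 was high for PSMB9, at 11.84 against 10.74 to 10.85, and for PSMC2, at 13.15 against 12.87 to 12.91. The median of the interferon response genes was high on PD325901 replicate 2, at 10.95 against 7.37 to 7.75, and on DMSO replicate 2, at 11.08 against 7.39 to 7.68. The part of the interferon genes in the PSMB9 value was not tested.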

How the results depend on the processing

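With the replicate block, the genes called numbered 3742 for SB590885 against DMSO, 1610 for PD325901 against DMSO and 3582 for SB590885 against PD325901, beside 649, 117 and 558, and the members lower 12, 2 and 6, beside 1, 0 and 0. The R mark as a term gave 3331, 1289 and 3187 genes and 9, 0 and 5 members lower, with 1 higher for PD325901. Unmarked arrays alone gave 2637, 186 and 2358 genes and 11, 0 and 13 members lower; marked arrays alone gave 1066, 1079 and 1770 genes and 2, 2 and 0 lower, with 1 higher between the inhibitors. Quantile normalisation gave 1632, 351 and 1556 genes and 3, 0 and 3 members lower, with 1 higher for PD325901; for the mark it gave 1 lower and 12 higher. Array weights gave 1599, 194 and 1352 genes and 3, 0 and 3 members lower. Centring gave 381 genes for SB590885 against DMSO, 307 between the inhibitors, 0 members lower and, for the mark, 0 higher. Of the genes called for SB590885 against DMSO, 48.5% were higher with SB590885 (37.3% when centred). Of those called for PD325901 against DMSO, 14.5% were higher with PD325901 (49.9% after quantile normalisation). Between the inhibitors, 69.7% of the called genes were higher with SB590885 (56.4% after quantile normalisation). Without replicate 2, 78, 63 and 180 genes and 0 members passed; adding the block, a choice made after seeing the data, gave 2717, 1296 and 2741 genes and 6, 3 and 2 members lower. Averaging probe sets called 351 genes lower and 323 higher of 19775 for SB590885 against DMSO, among them 0 members lower and 1 higher. Between the inhibitors it called 362 genes higher, 1 of them a member. Trended robust moderation left 0 members lower. The interaction called 1 gene each for SB590885 against DMSO and against PD325901, and 2 and 2 with probe sets ending in _at, and for the comparison with PD325901 2 when centred and 0 when averaged.

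Leaving out 1 array in turn gave 245 to 691 genes and 0 to 2 members lower for SB590885 against DMSO (288 and 260 without SB590885 replicate 1 and 2, and 245, 335, 387 and 393 without DMSO replicate 1, 2, 3 and 4), 72 to 126 genes for PD325901 (72 without DMSO replicate 2), 281 to 509 between the inhibitors (305 without SB590885 replicate 1, 281 without replicate 2, 370 without PD325901 replicate 4), and, for the mark, 10027 to 10704 genes and 18 to 26 members lower. Members lower numbered 0 without SB590885 replicate 1, 2 or 3 or DMSO replicate 1, 2 or 3, and 2 without SB590885 replicate 4. PSMB9 for PD325901 turned to 0.054 with array weights, and PSMD11 for SB590885 to 0.144 with probe sets ending in _at. The causes were not tested.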
